A study of Homo sapiens with 6 samples.

Results

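The integrin and laminin subunits are 38 protein-coding genes of the 58735 in the deposited count table, chosen by gene symbol. Of these, 37 are described, 26 integrin subunits and 11 laminin chains. Their messages were read from 6 RNA sequencing libraries of A549, an established line from a human lung adenocarcinoma whose labelled cell type is alveolar epithelium. One group of 3 libraries came from cells that received paraquat (PQ), a redox-cycling weedkiller that makes superoxide, and the other group of 3 from cells that received PQ together with SS-31, a peptide that enters mitochondria and attaches to cardiolipin. Both groups are labelled 48 h, and no source used here gives a dose. Untreated cells were not analysed here, so every difference below is between PQ+SS-31 and PQ and none is the effect of PQ itself. Total counts ran from 16332061 to 17576827 per library, and the 37 genes held 0.745% to 0.848% of them. The labels do not say whether replicates were separate cultures, so the p-values reflect the spread between these 6 libraries alone, which may be technical.

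Integrins are cell-surface receptors made of one α and one β subunit, and they tie the extracellular matrix to the actin cytoskeleton or, in the case of α6β4, to keratin filaments. Laminins are secreted trimers of one α, one β and one γ chain and form the core sheet of basement membranes. In lung epithelium the trimer of α5, β1 (or β2) and γ1 is typical of alveolar and airway basement membrane, while a trimer that holds α3 and β3 anchors epithelial cells through α6β4 and α3β1 and is made by migrating and wounded epithelium. The messages measured here are those of single subunits, and which of them were assembled into dimers or trimers was not measured.

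Promoter sequence is shown for LAMA3 and LAMB3, which encode chains of the same trimer. They were chosen because they hold 2 of the 3 member windows with the letters TGANTCA. That pattern, in which N is any base, includes the binding motif of the transcription factor AP-1. RefSeq promoter windows (GRCh38.p14, 250 bases before to 50 after a transcript start) were found for 26 of the 37 genes, 33 windows in all. The letters TGANTCA read alike on both strands and were the one pattern searched. They lay in 3 member windows (9.09%) and in 7.71% of all 35116 windows. Both shares are of this pattern, which is wider than the AP-1 motif. The LAMA3 window lies at chr18:23872770-23873019 on the plus strand, before a transcript start inside the gene, and holds 2 matches that begin 125 and 69 bases before the start. The LAMB3 window lies at chr1:209651375-209651624 on the minus strand and holds 1 match, 67 bases before the start. That start also lies inside the gene, 1092 bases from its 5′ end. The other 2 LAMB3 windows, with starts 137 and 41 bases from the 5′ end, hold none. The last match was in the ITGA5 window, beginning 6 bases before the start. The 250 bases upstream of each start are given 5′ to 3′, with the matches in capitals.
LAMA3: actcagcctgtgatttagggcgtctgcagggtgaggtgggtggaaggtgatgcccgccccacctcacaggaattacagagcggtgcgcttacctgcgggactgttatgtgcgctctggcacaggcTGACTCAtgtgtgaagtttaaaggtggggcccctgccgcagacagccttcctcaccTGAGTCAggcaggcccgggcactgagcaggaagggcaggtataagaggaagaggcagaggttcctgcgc
LAMB3: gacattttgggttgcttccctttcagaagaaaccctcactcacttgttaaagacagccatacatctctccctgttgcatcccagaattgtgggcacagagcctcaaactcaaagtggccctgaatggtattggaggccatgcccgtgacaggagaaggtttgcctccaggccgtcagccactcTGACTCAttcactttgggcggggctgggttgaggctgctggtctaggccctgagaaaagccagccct

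A filter on low counts kept 31 of the 37 genes, 22 integrin subunits and 9 laminin chains. Levels are CPM, counts relative to the library total, scaled with TMM factors, and between genes they are compared only per kb of gene model. On that scale ITGB1, the β subunit shared by most matrix-binding integrins, had the highest mean over the 6 libraries, at 319 CPM per kb. ITGA3, the α subunit that pairs with β1 to bind laminin, followed at 175 CPM per kb, and LAMA5, the laminin α5 chain, at 87.4 CPM per kb. The next levels were 74.8 for LAMC1, 58.3 for ITGB5, 51.4 for ITGA2, 45.8 for LAMB3, 40.8 for ITGA5, 40.6 for ITGAV, 39.7 for LAMB1 and 36.7 CPM per kb for ITGB4. Over the 6 libraries the ranges of ITGB1, ITGA3 and LAMA5 did not overlap, while from LAMA5 down to ITGB4 each gene's range overlapped that of the next. Read library by library, LAMA5 lay above LAMC1 and LAMC1 above ITGB5 in 6 of 6 libraries. From ITGB5 down to ITGB4 each gene lay above the next in 3 to 5 of 6 libraries, so the order among those genes was not the same in every library. LAMB2 at 22.2, ITGA6 at 17.7 and LAMA3 at 5.55 CPM per kb came next, and the other 17 tested genes lay between 2.35 (ITGAE) and 0.114 CPM per kb (LAMA2).

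**Figure D1:**
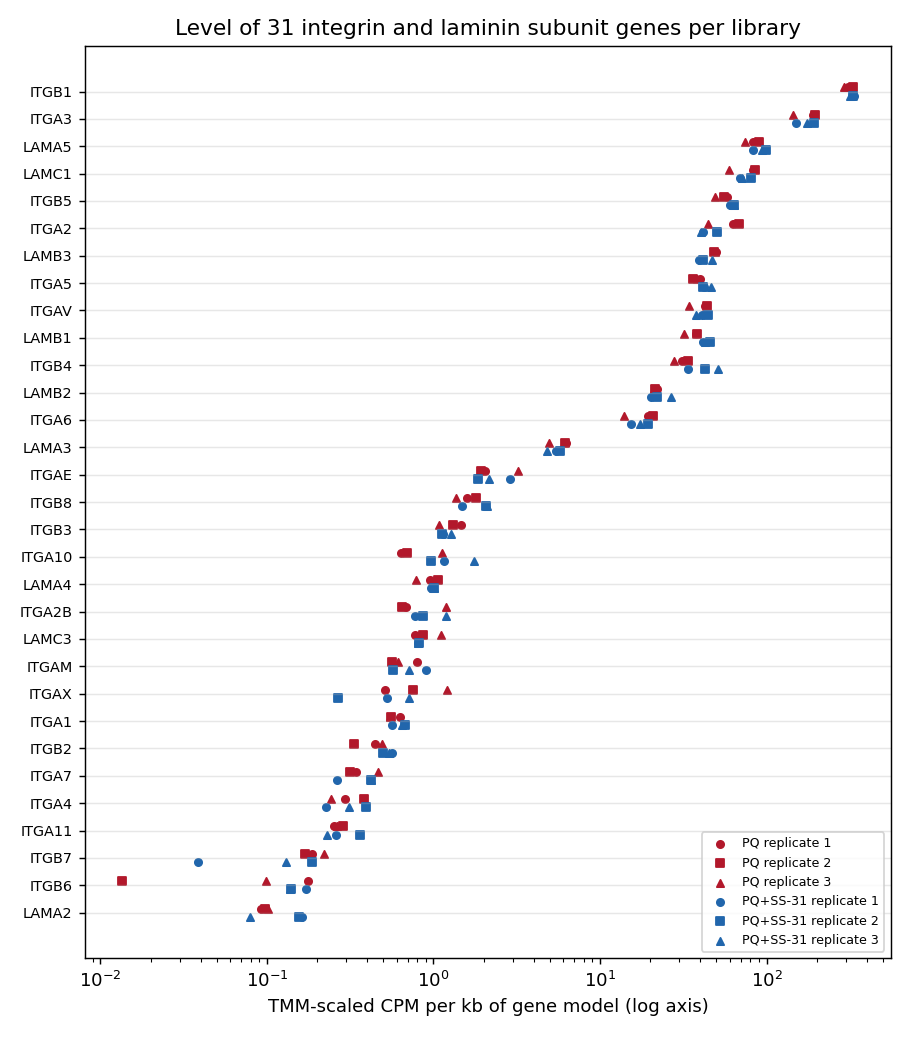
TMM-scaled CPM per kb of gene model (horizontal, log axis) for the 31 tested genes (vertical), with one point per library, PQ in red and PQ+SS-31 in blue. The highest level is that of ITGB1, at a mean of 319 CPM per kb, and the lowest that of LAMA2, at 0.114 CPM per kb.

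Within each chain family a few genes made up nearly all of the message per length. ITGA3 held 50.7% to 52.7% of the α integrin message in the PQ libraries and 50.3% to 54.2% in the PQ+SS-31 libraries. ITGB1 held 77.0% to 78.5% of the β integrin message with PQ and 72.8% to 77.4% with PQ+SS-31. LAMA5 held 91.9% to 92.7% of the laminin α message with PQ and 92.7% to 94.1% with PQ+SS-31. Per kb of gene model, LAMA5 thus stood far above LAMA3 in all 6 libraries. That scale divides by the whole gene model, and which transcripts of a gene were made was not measured. The 6 genes that did not pass the filter were ITGAD, LAMB4, ITGA9, ITGAL, LAMA1 and ITGA8, with 1 to 49 counts each over all 6 libraries.

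Setting PQ+SS-31 against PQ asks which of these messages SS-31 altered in cells under PQ. In edgeR's quasi-likelihood fit, with Benjamini-Hochberg adjustment over 15550 genes, 0 of the 31 tested members described here were higher and 0 lower at an adjusted p of 0.05. Over all tested genes 0.129% were called higher and 0.463% lower. Without adjustment, 3 members (ITGB4, LAMB1 and ITGA10) had p under 0.05 in the higher direction and 1 (ITGA2) in the lower direction, against 5.62% and 5.94% of all tested genes. DESeq2 and limma-voom also called 0 of them in either direction. The 3 PQ+SS-31 libraries lay above the 3 PQ libraries in 4 members (LAMB1, ITGB5, ITGA5 and ITGB2) and below them in 1 (LAMB3). Over all tested genes such separation was seen in 9.16% upward and 8.86% downward, so the members' count is close to the background. The median log2 fold change of the members was 0.08, with 19 positive and 12 negative, beside a median of 0.00 over all tested genes. In such bulk libraries fewer cells that make a message and less of it per cell cannot be told apart.

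**Figure D2:**
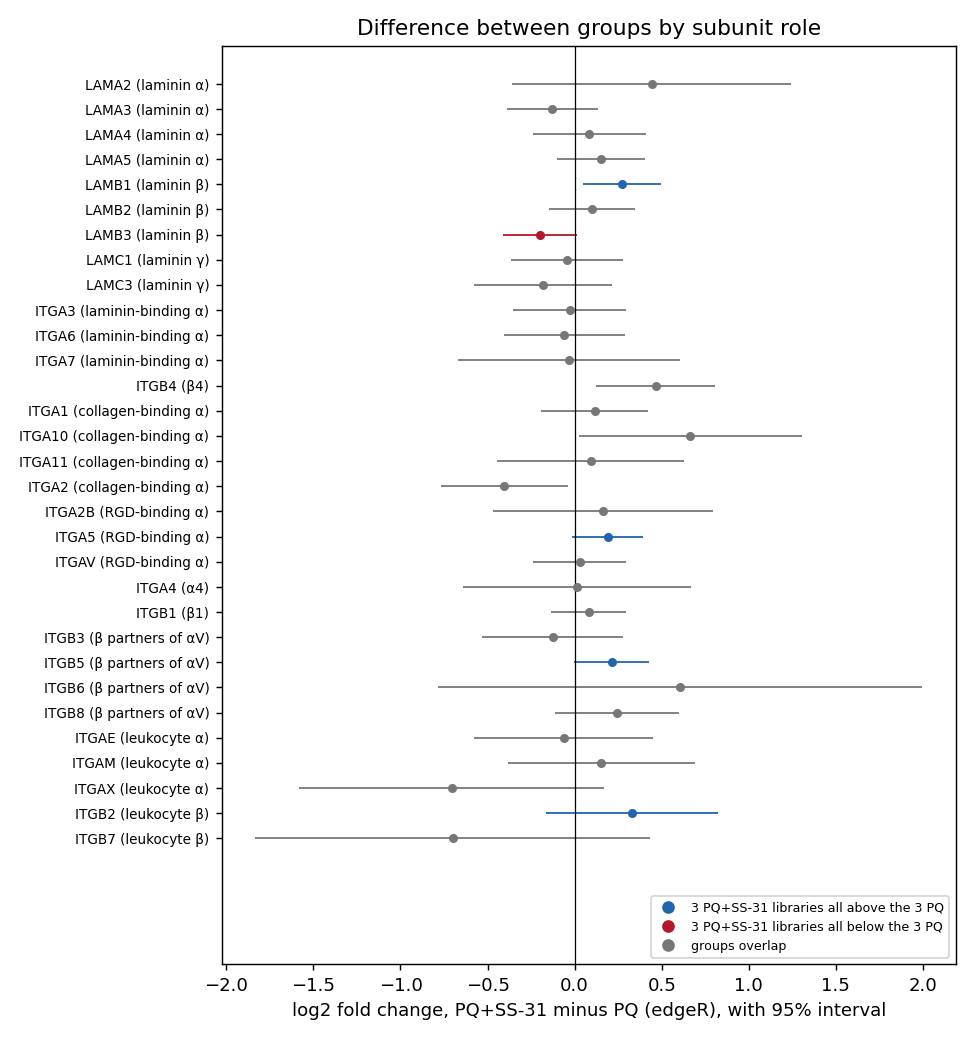
Fitted log2 fold change of PQ+SS-31 against PQ (horizontal) with its 95% interval for the 31 tested genes (vertical), grouped by subunit role. Blue and red mark genes whose 3 PQ+SS-31 libraries all lie above or all lie below the 3 PQ libraries, with LAMB1 at 0.27 and LAMB3 at -0.20 among them.

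LAMB3 and LAMA3, chains of the trimer made by migrating epithelium, had negative point estimates that did not pass. LAMB3, the β3 chain (chromosome 1, 209614870 to 209652466, GRCh38, minus strand), stood at 232, 225 and 231 CPM in PQ replicates 1 to 3 and at 184, 195 and 221 CPM in the 3 PQ+SS-31 libraries in the same order. The groups did not overlap, but PQ+SS-31 replicate 3 lay close to the PQ libraries (log2 fold change -0.20 ± 0.09 (SE), edgeR adjusted p = 0.483). LAMA3, the α3 chain (chromosome 18, 23689443 to 23956222, plus strand), stood at 92.0, 90.4 and 72.8 CPM with PQ and at 79.6, 83.9 and 70.2 CPM with PQ+SS-31. Its groups overlapped, with replicate 3 the lowest library of each group (log2 fold change -0.13 ± 0.11 (SE), edgeR adjusted p = 0.758).

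The chains of the α5, β1 and γ1 trimer had point estimates on either side of 0. LAMB1, the β1 chain (chromosome 7, 107923799 to 108003255, minus strand), stood at 307, 311 and 261 CPM in PQ replicates 1 to 3 and at 340.1, 372 and 348 CPM in the 3 PQ+SS-31 libraries in the same order. The 3 PQ+SS-31 libraries all lay above the PQ libraries (log2 fold change 0.27 ± 0.10 (SE), edgeR adjusted p = 0.332). LAMB1 overlaps DLD on the opposite strand, a metabolic enzyme gene whose total count was 35.3% of that of LAMB1, and whether the counting used strand is not stated. LAMA5, which overlaps ADRM1 on the opposite strand, encodes the α5 chain (chromosome 20, 62307955 to 62367312, minus strand) and stood at 1192, 1289 and 1067 CPM with PQ and at 1189, 1417 and 1339 CPM with PQ+SS-31, in overlapping groups (log2 fold change 0.15 ± 0.11 (SE), edgeR adjusted p = 0.682). LAMC1, the γ1 chain (chromosome 1, 183023460 to 183145592, plus strand), stood at 693, 719 and 503 CPM with PQ and at 583, 676 and 600.3 CPM with PQ+SS-31. The PQ libraries of LAMC1 spanned the whole PQ+SS-31 range, with a 95% interval of the log2 difference from -0.36 to 0.28. LAMB2, the β2 chain that can take the place of β1, had a mean of 147 ± 2.83 CPM with PQ and 158 ± 22.1 CPM with PQ+SS-31 (SD, n = 3). The remaining laminin chains, LAMA4 of vessel walls, LAMC3 and LAMA2 of muscle, were at 11.5 CPM or less in group mean, and their groups overlapped.

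**Figure D3:**
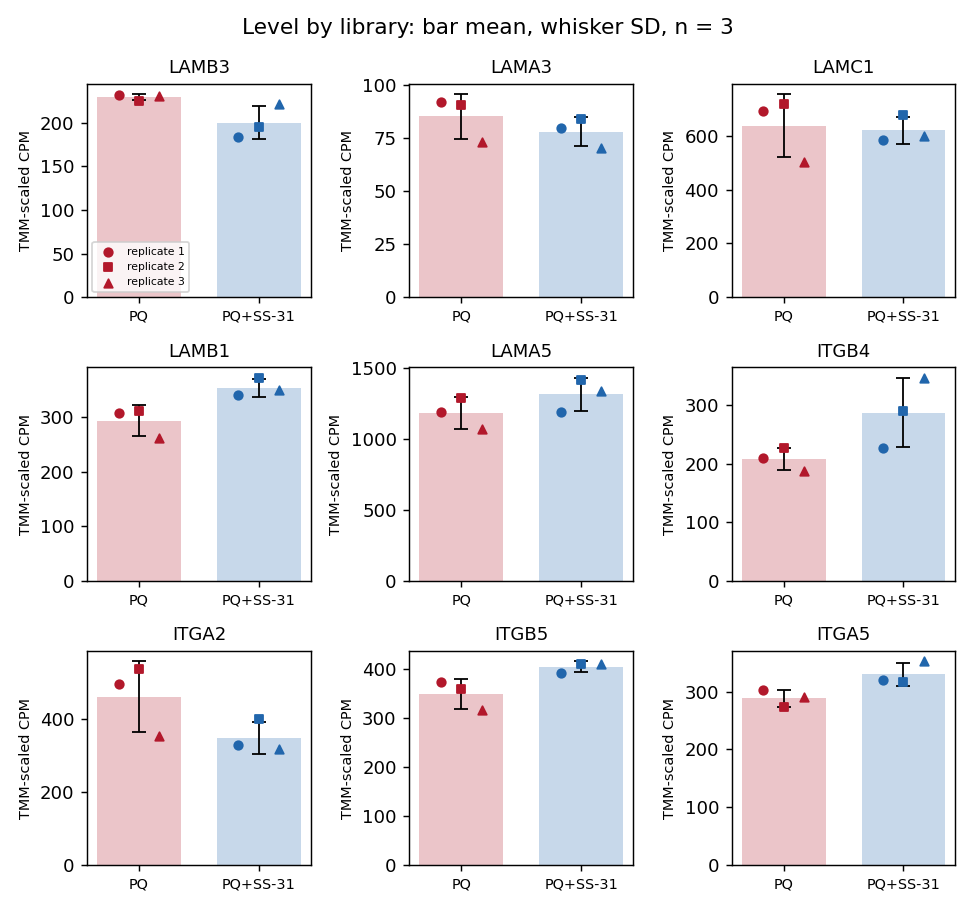
TMM-scaled CPM (vertical) in each library of 9 genes, PQ in red and PQ+SS-31 in blue, with bars for the mean and whiskers for the SD of 3 libraries and a marker shape for each replicate number. The 3 PQ+SS-31 libraries of LAMB1 lie between 340.1 and 372 CPM, all above its PQ libraries, and those of LAMB3 between 184 and 221 CPM, all below its PQ libraries.

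Ratios of chains within a library, chosen after the values were seen and given without a test, set genes of one family beside each other. In CPM per kb of gene model, LAMB3 over LAMB1 ran from 1.26 to 1.54 with PQ and from 0.911 to 1.10 with PQ+SS-31. LAMB3 over LAMB2 ran from 2.25 to 2.33 with PQ and from 1.77 to 1.93 with PQ+SS-31. LAMA3 over LAMA5 ran from 0.0664 to 0.0751 with PQ and from 0.0511 to 0.0652 with PQ+SS-31. Which transcripts of a gene were made was not measured, and LAMA3 has a transcript start inside the gene. The values are therefore not ratios of transcript numbers. LAMB3 enters 2 of these ratios, and its libraries and those of LAMB1 were already separated in opposite directions, so the ratios add no evidence to the values of the single genes.

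**Figure D4:**
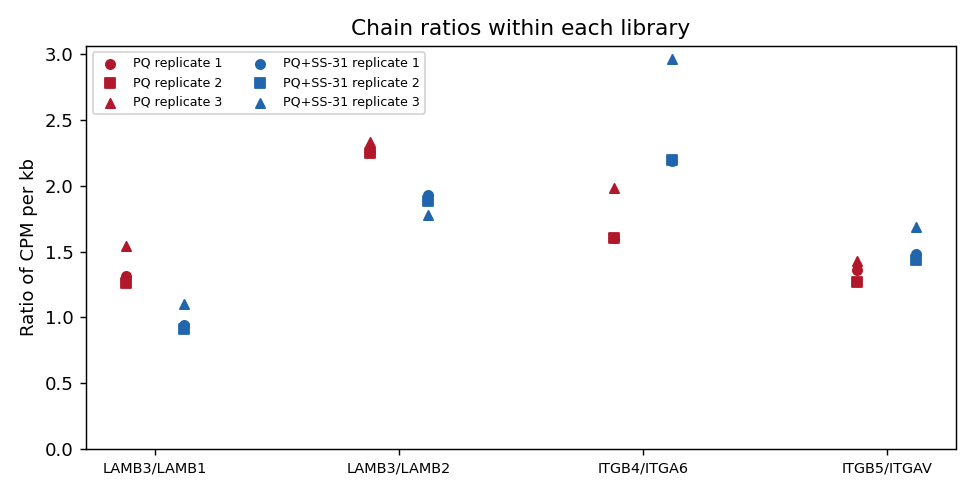
Ratio of CPM per kb between chains of a family or dimer (vertical) in each library for 4 pairs, PQ in red and PQ+SS-31 in blue. The pairs drawn are LAMB3/LAMB1, LAMB3/LAMB2, ITGB4/ITGA6 and ITGB5/ITGAV. LAMA3/LAMA5 and ITGA2/ITGB1 were also computed and are not drawn. The LAMB3/LAMB1 ratio lies between 1.26 and 1.54 in the PQ libraries and between 0.911 and 1.10 in the PQ+SS-31 libraries.

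Among the laminin-binding integrins, ITGB4 had a log2 fold change of 0.46 and its partner ITGA6 one of -0.06, a difference that was not tested. ITGB4, the β4 subunit whose long cytoplasmic tail links hemidesmosomes to keratin filaments (chromosome 17, 75721328 to 75757818, plus strand), stood at 209.8, 227 and 188 CPM in PQ replicates 1 to 3 and at 227, 289.9 and 346 CPM in the 3 PQ+SS-31 libraries in the same order. PQ replicate 2 and PQ+SS-31 replicate 1 were nearly equal, so the groups overlapped, and PQ+SS-31 replicate 3 was the highest (log2 fold change 0.46 ± 0.15 (SE; 95% interval 0.12 to 0.81), edgeR adjusted p = 0.262). Without a filter on low counts ITGB4 passed the threshold (edgeR adjusted p = 0.0112), and over all alternatives its adjusted p ran from 0.0112 to 0.666. ITGB4 overlaps GALK1 on the opposite strand, whose total count was 13.9% of that of ITGB4. ITGA6, the α6 subunit that pairs with β4 or β1, stood at 127, 137 and 91.5 CPM with PQ and at 100.1, 128 and 113 CPM with PQ+SS-31. The ratio of ITGB4 to ITGA6 per kb ran from 1.60 to 1.99 with PQ and from 2.19 to 2.96 with PQ+SS-31. This pair too was chosen after the values were seen, and its ratio was not tested and adds no evidence to the single genes. ITGA3 had a mean of 1729 ± 275 CPM with PQ and 1695 ± 213 CPM with PQ+SS-31 (SD, n = 3), with a 95% interval of the log2 difference from -0.36 to 0.30. Its lowest libraries were PQ replicate 3 at 1413 CPM and PQ+SS-31 replicate 1 at 1468 CPM. ITGA7, the laminin receptor of muscle, was low in both groups, at means of 2.39 and 2.34 CPM, and is overlapped on the opposite strand by BLOC1S1 and METTL7B, whose counts were larger.

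Of the collagen-binding α subunits, which all pair with β1, ITGA2 was the main one. ITGA2, the α2 subunit (chromosome 5, 52989326 to 53094779, plus strand), stood at 497, 538 and 354 CPM in PQ replicates 1 to 3 and at 330.1, 400.4 and 319.8 CPM in the 3 PQ+SS-31 libraries in the same order. PQ replicates 1 and 2 were above every PQ+SS-31 library, while PQ replicate 3 lay within the PQ+SS-31 range. The log2 fold change was -0.40 ± 0.16 (SE; 95% interval -0.77 to -0.04; edgeR adjusted p = 0.382). Without PQ replicate 3 it was -0.57 with an edgeR adjusted p of 0.0292, and without a filter on low counts the adjusted p was 0.0452, in a range of 0.0292 to 0.770 over all alternatives. ITGA10, the α10 subunit best known from cartilage, stood at 4.03, 4.36 and 7.10 CPM with PQ and at 7.35, 6.12 and 11.1 CPM with PQ+SS-31. Its replicate 3 was the highest library of each group, and the groups overlapped (log2 fold change 0.66 ± 0.28 (SE), edgeR adjusted p = 0.416). Leaving out PQ+SS-31 replicate 3 gave a log2 fold change of 0.38 and leaving out PQ replicate 3 gave 0.96, and over all alternatives its adjusted p ran from 0.0676 to 0.827. ITGA1 and ITGA11 had log2 fold changes of 0.12 and 0.09. ITGA1 shares its locus and strand with PELO, whose total count was larger, so reads from the overlap are uncertain.

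Of the receptors of fibronectin and vitronectin, which bind the peptide motif RGD, edgeR called 0 in either direction. ITGB5, the β5 partner of αV (chromosome 3, 124761948 to 124901418, minus strand), stood at 373, 357 and 315 CPM in PQ replicates 1 to 3 and at 391, 410.3 and 409 CPM in the 3 PQ+SS-31 libraries in the same order. The groups did not overlap (log2 fold change 0.21 ± 0.09 (SE), edgeR adjusted p = 0.440). ITGA5, the α5 subunit of the fibronectin receptor (chromosome 12, 54395261 to 54419460, minus strand), stood at 302, 273 and 291 CPM with PQ and at 321, 316 and 352 CPM with PQ+SS-31. These groups did not overlap either (log2 fold change 0.19 ± 0.09 (SE), edgeR adjusted p = 0.477). ITGAV, the αV subunit, had means of 330.1 ± 42.8 CPM and 337 ± 27.5 CPM (SD, n = 3), and ITGB1, the β1 subunit, had means of 1863 ± 114 CPM and 1969 ± 51.3 CPM (SD, n = 3). The 95% interval of the log2 difference ran from -0.24 to 0.29 for ITGAV and from -0.13 to 0.29 for ITGB1. ITGB8 and ITGB6 encode β subunits that, with αV, release active TGF-β. ITGB8 stood at 24.1 ± 3.28 and 28.5 ± 5.20 CPM (SD, n = 3), and ITGB6 at 1 to 14 counts per library, with a log2 fold change of 0.61 ± 0.61 (SE). ITGB3, the β3 subunit of platelets and endothelium, had a log2 fold change of -0.13 and ITGA2B, its platelet partner, one of 0.16.

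Tested integrin subunits of leukocytes had means over the 6 libraries between 2.35 CPM per kb (ITGAE) and 0.155 CPM per kb (ITGB7). ITGB2, the β2 subunit common to leukocyte integrins, stood at 3.03, 2.28 and 3.31 CPM with PQ and at 3.82, 3.38 and 3.67 CPM with PQ+SS-31, without overlap (edgeR adjusted p = 0.635). Its antisense neighbour ITGB2-AS1 had 23.9% of its count. ITGAM and ITGAX, which pair with β2 on myeloid cells, had log2 fold changes of 0.15 ± 0.24 and -0.71 ± 0.39 (SE). ITGAX ranged from 1.90 CPM in PQ+SS-31 replicate 2 to 8.49 CPM in PQ replicate 3. ITGAE, the αE subunit that binds E-cadherin, stood at 13.6, 12.9 and 21.5 CPM with PQ and at 19.2, 12.4 and 14.4 CPM with PQ+SS-31, and its antisense neighbour HASPIN, a mitotic kinase gene, had 52.9% of its count. ITGA4 had a log2 fold change of 0.01 and ITGB7, its lymphocyte partner, one of -0.70 at 3 to 17 counts per library, where ZNF740 on the opposite strand had far more.

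PQ replicate 3 stood apart from the other PQ libraries in these genes. Of the 18 described members with a mean over 10 CPM, 15 had their lowest PQ value in PQ replicate 3 (83.3%), against 47.1% of the 9956 tested genes over 10 CPM. Its level relative to the mean of PQ replicates 1 and 2 had a median of -0.23 on the log2 scale over these members and -0.03 over those 9956 genes. Over the 5941 genes with models at least as long as the shortest of the 18, which is 4688 bases, the share was 58.7% and the median -0.12. On the first principal component of all tested genes, with 39.4% of the variance, PQ replicate 3 lay on the same side as PQ+SS-31 replicates 1 and 3. On the second component, with 23.5% of the variance, PQ replicates 1 to 3 lay at 13.2, 13.6 and 22.6. The PQ+SS-31 libraries lay there at -10.3, -21.3 and -17.8, in the same order. With a correction of each library for GC content and transcript length, the log2 fold changes were 0.28 for LAMB1, -0.37 for ITGA2 and 0.43 for ITGB4, close to those without it, and edgeR called 0 members. The part of either principal component in the differences above was not tested.

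Genes that act with integrins and laminins were read from the same fit. Of 38 tested genes of the adhesome, the cytoplasmic linkers and kinases at integrin tails, edgeR called 0 higher and 0 lower. Unadjusted p was under 0.05 in 5 higher and 2 lower genes, against 5.62% and 5.94% of all tested genes. The groups did not overlap in 6 higher and 4 lower genes, against 9.16% and 8.86% of all tested genes. The median log2 fold change was 0.00. BCAR1, the docking protein p130Cas, had the smallest p at 135 ± 1.05 CPM with PQ and 104 ± 6.78 CPM with PQ+SS-31 (SD, n = 3; edgeR adjusted p = 0.104). TNS2 and TNS4, tensins that bind β tails, had log2 fold changes of 0.60 ± 0.14 and 0.44 ± 0.12 (SE; edgeR adjusted p = 0.121 and 0.179), with groups that did not overlap. Talin, kindlin and FAK genes of this list were not called.

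Among basement membrane components and integrin ligands, 2 of 35 tested genes rose and 1 fell in edgeR's test, beside 0.129% and 0.463% of all tested genes. The list was chosen with earlier results of these data known, so its counts do not measure an enrichment. Unadjusted p was under 0.05 in 8 higher and 2 lower genes of this list, against 5.62% and 5.94% of all tested genes. The groups did not overlap in 10 higher and 2 lower genes, against 9.16% and 8.86% of all tested genes. The median log2 fold change was 0.12 with 26 values above 0, beside 0.00 and 7784 of 15550 over all tested genes. SPP1, the RGD ligand osteopontin, fell from 99.0 ± 4.75 to 64.3 ± 5.45 CPM (SD, n = 3; log2 fold change -0.62, edgeR adjusted p = 0.0298). CDH1 (E-cadherin), the ligand of αEβ7, and FGA, a fibrinogen chain with RGD motifs, rose with edgeR adjusted p of 0.0389 and 0.0487. In refits that left out 1 library, the companion lists together held 0 calls without any library but PQ replicate 3, and 3 higher and 2 lower without PQ replicate 3. FN1 (fibronectin) stood at 437 ± 50.6 CPM with PQ and 540.03 ± 24.2 CPM with PQ+SS-31 without passing (edgeR adjusted p = 0.301), a gene named after its values were seen. Of 18 non-integrin laminin receptors, tetraspanins and hemidesmosome genes, edgeR called 0, with a median log2 fold change of 0.07. Unadjusted p was under 0.05 in 1 higher and 1 lower gene of the 18, against 5.62% and 5.94% of all tested genes. The smallest p values were those of CD82, a tetraspanin, at 24.9 ± 3.62 and 18.4 ± 1.36 CPM (SD, n = 3), DAG1, the laminin receptor dystroglycan, at 155 ± 15.3 and 192 ± 4.06 CPM, and BCAM, a receptor of laminin α5, with a log2 fold change of 0.28 ± 0.13 (SE).

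The labelled cell type was checked against marker genes. Keratin genes KRT7, KRT8 and KRT18 were abundant, and the summed level of 7 epithelial markers ran from 3771 to 4019 CPM with PQ and from 4612 to 5099 CPM with PQ+SS-31, without overlap. Most of that sum came from KRT7, at means of 2128 and 2380.3 CPM, and KRT8, at 1356 and 1939 CPM, while KRT19 had a log2 fold change of -0.23. Of the 7 markers edgeR called 1 higher, CDH1, and 0 lower, beside 0.129% and 0.463% of all tested genes. EPCAM, however, was under 1 CPM in every library. Of the alveolar type II markers, NKX2-1 had 0 counts in every library, SFTPC 2 counts in all and SFTPB 14. LAMP3 and NAPSA reached 5.99 and 2.85 CPM, so that the label alveolar is not borne out by these markers. Their 6 genes summed to 5.50 to 8.90 CPM with PQ and 3.62 to 5.59 CPM with PQ+SS-31, which overlap. LAMP3 had means of 5.31 CPM with PQ and 2.55 CPM with PQ+SS-31 without passing (edgeR adjusted p = 0.110). NAPSA had a log2 fold change of 0.38. The leukocyte markers PTPRC, CD3E and LYZ had 4, 0 and 0 counts over the 6 libraries, and the summed level of 7 leukocyte markers ran from 6.70 to 9.67 CPM with PQ and from 10.2 to 11.8 CPM with PQ+SS-31, mostly from CD14 and ITGAM. The fibroblast list summed to 11.4 to 18.9 CPM with PQ and 14.9 to 23.0 CPM with PQ+SS-31, and the endothelial list to 0.582 to 1.25 and 0.231 to 0.772 CPM.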

How the data were processed

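The authors deposited 1 table of raw counts, whole numbers per gene and library, with gene names, positions and model lengths. The submitters' processing notes name CASAVA, HISAT2 (2.0.5), featureCounts (1.5.0-p3), DESeq2 (1.20.0) and the mouse build mm10. Every one of the 58735 deposited genes is nevertheless human, with chromosome, start, end and strand equal to those of GENCODE 29 (GRCh38). Whether libraries or counting kept strand is not stated. Columns were assigned by the group letter and number in their names, and the number of other sample columns was 0.

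For this report edgeR 4.0.16 (R 4.3.3) filtered the counts with filterByExpr, scaled them with TMM factors and ran the quasi-likelihood test on 15550 genes, adjusting p by Benjamini-Hochberg with a threshold of 0.05. SE and 95% intervals derive from the test statistic. Alternatives were RLE factors, library size alone, no filter, DESeq2 1.42.0, limma-voom (limma 3.58.1), the replicate number as a block and leaving out every library in turn. After seeing the data, a loess correction (span 0.5) of each library for the GC content and length of transcripts was added, alone and together with the block. One gene of the rule is not reported here and is left out of all counts of members. Every other member past the filter is named, and from each companion list the called genes or the 3 smallest p. The members and lists were chosen with earlier results of these data known.

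In simulated counts shaped on this comparison (15550 genes), the test found 46 of 100 changes of 1.5-fold and 91 of 100 changes of 2-fold. The changes were placed only in genes above a minimum mean CPM, so these shares do not cover the members with the lowest counts. Replicate libraries differed beyond sampling noise in every pair, and all 6 were kept.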

Additional observations from a re-analysis of the deposited data

How the results depend on the processing

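The counts of called genes depended on the setting, and the cause was not tested. Over all tested genes, edgeR called 20 higher and 72 lower, against 13 higher with library size alone, 156 and 237 without a filter on low counts, 123 and 207 by DESeq2, 71 and 152 with GC and length offsets, and 155 and 261 with those offsets and the replicate block. In refits without 1 library, 0 to 125 were higher and 0 to 203 lower. Among the integrin and laminin subunits described here, 0 higher and 0 lower became 1 and 1 without the filter (ITGB4 higher, ITGA2 lower). In refits without 1 library 0 higher and 0 to 1 lower were called, the 1 being ITGA2 without PQ replicate 3. In the companion lists, 2 higher and 1 lower became 1 and 0 with library size alone, 6 and 2 without the filter, 4 and 2 by DESeq2, 2 lower with the offsets, 5 and 4 with the offsets and the replicate block, and 0 to 3 and 0 to 2 in refits without 1 library.

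The replicate numbers were not taken as pairs: deviations of same-numbered libraries from their group means correlated at -0.092, 0.392 and 0.191, and PQ replicate 1 correlated best with PQ+SS-31 replicate 2. With the replicate block 66 genes were higher and 134 lower over all tested genes, and 0 subunits were called.

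Signs turned in refits without 1 library for 12 uncalled subunits, whose log2 fold changes ran from -0.160 to 0.0650 for ITGA3, -0.193 to 0.0520 for LAMC1, -0.219 to 0.0590 for ITGA6, -0.0800 to 0.0953 for ITGAV, -0.0183 to 0.180 for LAMB2, -0.257 to 0.204 for ITGAE, -0.0311 to 0.191 for LAMA4, -0.0443 to 0.496 for ITGA2B, -0.0274 to 0.311 for ITGAM, -0.116 to 0.222 for ITGA11, -0.191 to 0.206 for ITGA4 and -0.142 to 0.159 for ITGA7. The other 19 tested subunits kept their sign under every alternative that gave them a value. Low counts limit LAMA2, ITGB6 and ITGB7, whose intervals were among the widest.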
